A study of Mus musculus with 4 samples.

Results

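Il24 and Tslp encode secreted cytokines of epithelial cells, and their transcripts are described here in cultured mouse keratinocytes. They were taken as the rows with these gene symbols in the gene tables, which gave 2 genes of 13102, and both were chosen by their counts in these 4 libraries. Every level and ratio of Il24 and Tslp below is therefore a description and supports no conclusion about the choice. RNA was sequenced from primary epidermal keratinocytes of neonatal C57BL/6 mice after 48 h in culture. The groups are cells of Il17rc knockout (KO) mice with interleukin-17A (IL-17A), cells of Il17rd KO mice with IL-17A, wild-type (WT) cells with IL-17A, and untreated WT cells. IL-17A, an inflammatory cytokine that acts on the epidermis, was given at 100 ng/mL for 8 h. Il17rc and Il17rd encode chains of the IL-17 receptor family. The sources used here do not give how many mice were pooled, their sex, the design of either knockout allele or the cells in which it acts. Untreated cells of either knockout were not analysed here.

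IL-24 belongs to the IL-10 family and signals to epithelial cells through receptors that share the chain encoded by Il20rb, which activate the kinase JAK1 and the transcription factor STAT3. It is made by keratinocytes in wounds and in inflamed skin. Thymic stromal lymphopoietin (TSLP) signals through the receptor chain encoded by Crlf2 together with the IL-7 receptor alpha chain, and activates STAT5. Keratinocytes release it in atopic skin inflammation, where it acts on dendritic cells and lymphocytes. Both genes are thus read as ligands that these cells may secrete, and RNA levels do not show secreted protein.

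Each group has 1 library, so replicates cannot be compared and p-values were left out. Total counts over the listed genes lay between 19711866 and 19904695. A level is given in CPM, a gene's counts relative to the library size after scaling by TMM (trimmed mean of M-values). A ratio is followed by its exact 95% counting interval, which covers counting error alone and compares libraries, not conditions. A gene is called higher or lower where the libraries differed by at least 2-fold, on a log2 scale with a prior count of 2, and the interval excluded 1, among the 12934 genes that averaged 1 CPM or more. Il17rd had 5 counts in the Il17rd KO library, against 265 in IL-17A WT. Il17rc had 439 counts in the Il17rc KO library, against 1152 in IL-17A WT, so transcript of Il17rc was still counted in its knockout. Il17rc also differed between the WT libraries, with 2729 counts in untreated WT, and was 2.42-fold lower (2.26 to 2.59) in IL-17A WT. In Il17rd KO it had 1718 counts. The Y-linked Ddx3y had 749 counts in Il17rc KO, 2 in Il17rd KO, 233 in IL-17A WT and 654 in untreated WT. The X-linked Xist had 2668, 8513, 4750 and 2420 counts in the same order, highest where Ddx3y was lowest. With 1 library per group, these differences cannot be told apart from those of genotype and treatment. Their part in the results below was not tested. In cultured cells of mixed types, fewer cells of a type and less RNA per cell cannot be told apart.

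Il24 (ENSMUSG00000026420, chromosome 1, 130882074 to 130887454, minus strand, GRCm38) was nearly absent from untreated cells and well counted in WT cells with IL-17A. It had 46 counts in the Il17rc KO library, 40 in the Il17rd KO library, 333 in IL-17A WT and 2 in untreated WT. In CPM, these were 2.29 (1.68 to 3.06), 1.95 (1.39 to 2.65), 17.0 (15.2 to 18.9) and 0.104 (0.0126 to 0.377) in the same libraries, with exact 95% Poisson intervals. IL-17A WT stood highest and untreated WT lowest, and the knockout libraries lay between them with intervals that overlapped each other and neither WT library. Il24 exceeded 1 CPM in 3 of the 4 libraries, all of them with IL-17A, so its place among the listed genes rests on those libraries.

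Tslp (ENSMUSG00000024379, chromosome 18, 32815383 to 32819797, plus strand, GRCm38) was plentiful in every library and stood highest in the Il17rc KO library. It had 2350 counts in the Il17rc KO library, 1115 in the Il17rd KO library, 865 in IL-17A WT and 777 in untreated WT. In CPM these were 117 (112 to 122), 54.3 (51.1 to 57.6), 44.2 (41.3 to 47.2) and 40.5 (37.7 to 43.5). The Il17rc KO interval lay apart from the others, the Il17rd KO interval lay above both WT intervals, and those of IL-17A WT and untreated WT overlapped.

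**Figure D1:**
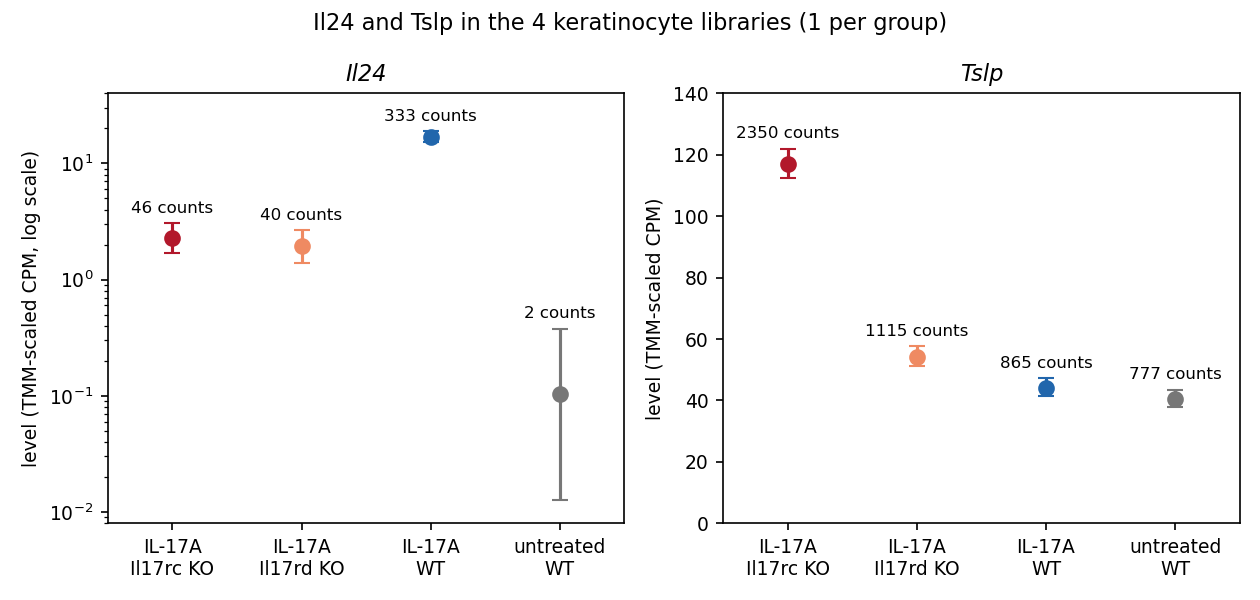
Levels of Il24 (left, log scale) and Tslp (right, linear scale from 0) in TMM-scaled CPM, with 1 point per library, exact 95% Poisson intervals as bars and the counts written above. Il24 peaks in IL-17A WT at 17.0 CPM with both knockouts near 2 CPM, and Tslp peaks in the Il17rc KO library at 117 CPM.

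Levels per transcript length, which allow genes to be compared, were taken from the FPKM values the authors deposited. Tslp had 103 FPKM in the Il17rc KO library, 47.8 in Il17rd KO, 38.9 in IL-17A WT and 35.7 in untreated WT, at ranks 434, 1056, 1375 and 1562 of the 13102 genes. Il24 had 1.65, 1.40, 12.3 and 0.0751 FPKM in the same libraries, at ranks 10387, 10774, 4267 and 13060. Tslp thus exceeded Il24 in every library, by 62.5-fold in Il17rc KO, 34.1-fold in Il17rd KO, 3.18-fold in IL-17A WT and 475-fold in untreated WT. The last value rests on 2 counts of Il24. The annotation lists 4 transcripts for Il24 and 2 for Tslp, and a count per gene does not separate them. A long noncoding gene on the opposite strand, 4930455D15Rik, spans Tslp with 0 bases of shared exon.

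The comparison of WT cells with and without IL-17A addresses which transcripts differ with the cytokine. With IL-17A, Il24 was 163-fold higher (44.8 to 1352) than in untreated WT, a ratio taken without the prior count. With the prior count of 2 its log2 ratio was smaller, at 6.38, and Il24 was called higher, as were 8.69% of all genes. By log2 ratio Il24 ranked 6 from the top of the 12934 genes. Tslp was at 1.09-fold (0.989 to 1.20) and was not called, with an interval that includes 1. The upper bound sets a limit of 1.20-fold on the Tslp difference between these libraries as far as counting error goes.

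In the Il17rc KO library Il24 was 7.42-fold lower (5.44 to 10.3) than in IL-17A WT, and was called lower, as were 4.68% of all genes. Tslp was 2.65-fold higher (2.45 to 2.87) in the same comparison and was called higher, as were 6.02% of all genes. In the Il17rc KO library the cytokines thus stood on opposite sides of IL-17A WT. In the Il17rd KO library Il24 was 8.74-fold lower (6.28 to 12.5) than in IL-17A WT and was called lower, as were 3.6% of all genes. Tslp was 1.23-fold higher there (1.12 to 1.34), an interval that excludes 1 at a size below the 2-fold call.

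How much of Il24 remained above untreated WT was measured against the same untreated library. The Il17rc KO library was 22.0-fold above untreated WT (5.75 to 187) and the Il17rd KO library 18.7-fold above it (4.84 to 159). Both were called higher, as were 7.09% of all genes for Il17rc KO and 5.12% for Il17rd KO. Scaling by library totals alone changed the whole set of calls for Il17rd KO against untreated WT to 802 higher and 316 lower, against 662 and 412, and left the call of Il24 as it was. Of the 16.9 CPM by which IL-17A WT exceeded untreated WT, 2.19 CPM remained in Il17rc KO and 1.84 CPM in Il17rd KO. These are 12.9% (9.31 to 17.5) in Il17rc KO and 10.9% (7.61 to 15.1) in Il17rd KO, with intervals from the knockout's own count alone. Because no untreated knockout cells were analysed here, the remainder cannot be split into a response to IL-17A and a difference in the starting level.

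Tslp has no such remainder to give, since IL-17A WT and untreated WT were not called different. In CPM Tslp stood 76.7 above untreated WT in the Il17rc KO library and 13.8 above it in the Il17rd KO library, while IL-17A WT stood 3.67 above it. The ratios to untreated WT were 2.89-fold (2.66 to 3.14) for Il17rc KO, which was called, and 1.34-fold (1.22 to 1.47) for Il17rd KO, which was not. The comparisons with untreated WT share that library, and those with IL-17A WT share the other, so they are not independent of each other.

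Between the knockouts, Il24 was at 1.18-fold (0.754 to 1.85) in Il17rc KO over Il17rd KO and was not called. Counting error alone allows any ratio in that range, so the libraries are not shown to be alike in Il24. Tslp was 2.16-fold higher (2.01 to 2.32) in Il17rc KO than in Il17rd KO and was called, as were 1.41% of all genes in that direction. Tslp ranked 128 from the top of 12934 genes in this comparison, and 416 in that of Il17rc KO with IL-17A WT.

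**Figure D2:**
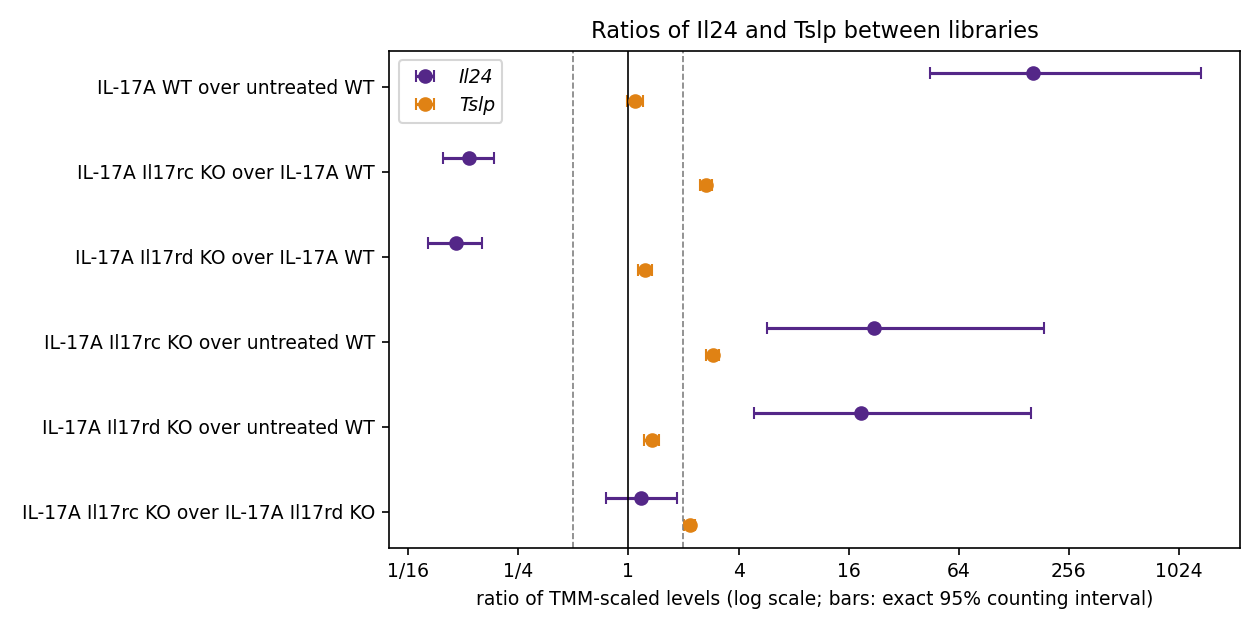
Ratios of TMM-scaled levels for Il24 (purple) and Tslp (orange) in 6 comparisons, on a log scale, with exact 95% counting intervals as bars, a solid line at 1 and dashed lines at 2-fold either way. Il24 lies left of 1 in both knockouts against IL-17A WT and right of 1 in both against untreated WT, whereas Tslp passes 2-fold in the 3 comparisons that put Il17rc KO on top.

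The relatives of Il24 were looked up as a list of the IL-10 family. Of 7 listed genes 1, Il24 itself, was among the 13102, and Il10, Il19, Il20, Il22, Ifnl2 and Ifnl3 were not analysed here. Of 5 listed receptor chains 3 were measured. Il20rb, the chain that the receptors for IL-24 share, had 100 counts in Il17rc KO, 87 in Il17rd KO, 44 in IL-17A WT and 196 in untreated WT. In IL-17A WT, Il20rb was 4.55-fold lower (3.26 to 6.46) than in untreated WT and was called lower, as were 10.5% of all genes, and it stood lowest in the library where Il24 stood highest. It was 2.22-fold higher (1.54 to 3.24) in Il17rc KO than in IL-17A WT, which was called, and 1.88-fold (1.30 to 2.77) in Il17rd KO, which was not. Against untreated WT it was 2.05-fold lower (1.60 to 2.64) in Il17rc KO, a call that is lost when libraries are scaled by their totals, and 2.41-fold lower (1.87 to 3.14) in Il17rd KO.

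Il22ra1, which pairs with the Il20rb chain in one of the IL-24 receptors and also serves IL-22, had 129, 139, 117 and 231 counts in Il17rc KO, Il17rd KO, IL-17A WT and untreated WT. Its log2 ratio in IL-17A WT over untreated WT was -0.999, just short of the call at a prior count of 2 and past it at 0.5. The IL-17A libraries lay close together and all below untreated WT. Il10rb, which pairs with the Il22ra1 chain in the IL-22 receptor, had 398, 545, 486 and 382 counts across the same libraries and was not called in any of the 6 comparisons. Il20ra, the other partner of the Il20rb chain, was not analysed here.

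Crlf2, the TSLP receptor chain, had 314 counts in Il17rc KO, 246 in Il17rd KO, 287 in IL-17A WT and 512 in untreated WT. Crlf2 was 2.23-fold lower (1.91 to 2.61) in Il17rd KO than in untreated WT and was called lower there, as were 3.19% of all genes. In IL-17A WT it was 1.82-fold lower (1.57 to 2.11) and not called. Il7r and Il7, the IL-7 receptor alpha chain and the sister ligand of TSLP, were not analysed here. Il2rg, the common gamma chain that serves IL-7 but not TSLP, was 2.79-fold higher (2.16 to 3.64) in IL-17A WT than without IL-17A, with 231 counts against 81.

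Downstream of both receptors, none of the 7 measured JAK kinase and STAT factor genes was called in any of the 6 comparisons. Across these comparisons, between 1.41% and 8.69% of all genes were called higher and between 2.51% and 10.5% lower. The median log2 ratio of the 7 genes in IL-17A WT over untreated WT was -0.31, beside 0.0041 over all genes. Of 13 feedback and target genes of these factors, 0 were called higher and 2 lower in IL-17A WT over untreated WT, beside 8.69% and 10.5% of all genes. Pim1, a kinase gene induced by STAT factors, was 2.99-fold lower (2.71 to 3.29) and Bcl3, an NF-kB cofactor, 2.16-fold lower (1.85 to 2.53). Socs3, the feedback inhibitor induced by STAT3, had 257 counts in Il17rc KO, 311 in Il17rd KO, 222 in IL-17A WT and 341 in untreated WT and was not called. Pim1 was called higher in both knockouts over IL-17A WT, at log2 ratios of 1.10 in Il17rc KO and 1.01 in Il17rd KO. Socs2, a target of STAT5, was called higher in Il17rc KO over IL-17A WT, with 106 counts against 50, and Bcl3 in Il17rd KO over IL-17A WT, with 565 against 242. Of the 13 genes, 2 were called higher in each of these comparisons, beside 6.02% and 6.04% of all genes.

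Tslp was next set beside the other epithelial alarmins, cytokines that damaged or stimulated epithelium releases. Of 5 listed, 4 were measured, and Tslp was the 1 among them that stood highest in Il17rc KO. Il33 had 290 counts in Il17rc KO, 595 in Il17rd KO, 49 in IL-17A WT and 214 in untreated WT. Il18 had 245, 178, 27 and 441 counts, and Il1a had 275, 501, 6135 and 246, in the same order. Il33 and Il18 were thus lowest and Il1a highest in IL-17A WT, the library in which Tslp differed little from untreated WT. In IL-17A WT over untreated WT, Il33 was 4.46-fold lower (3.26 to 6.21) and Il18 16.7-fold lower (11.3 to 25.6), and both were called. In Il17rc KO over IL-17A WT, Il33 was 5.78-fold higher (4.26 to 7.99), Il18 8.86-fold higher (5.94 to 13.7) and Tslp 2.65-fold higher. In Il17rd KO over untreated WT, Il33 was called higher, at 2.60-fold (2.22 to 3.05), and Il18 lower, at 2.65-fold (2.23 to 3.18), a comparison in which Tslp was not called. Among all genes, 10.5% were called lower in IL-17A WT over untreated WT and 6.02% higher in Il17rc KO over IL-17A WT. In Il17rd KO over untreated WT, 5.12% of all genes were called higher and 3.19% lower. Il1a, which shares with Il24 its peak in IL-17A WT, was 24.4-fold higher (21.5 to 27.9) there than in untreated WT. In Il17rc KO, Il1a was at 1.07-fold of untreated WT (0.897 to 1.27), whereas Il24 was 22.0-fold above it. In Il17rd KO, Il1a was 1.90-fold above untreated WT (1.63 to 2.22), which is called when scaled by library totals, and Il24 was 18.7-fold above it.

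**Figure D3:**
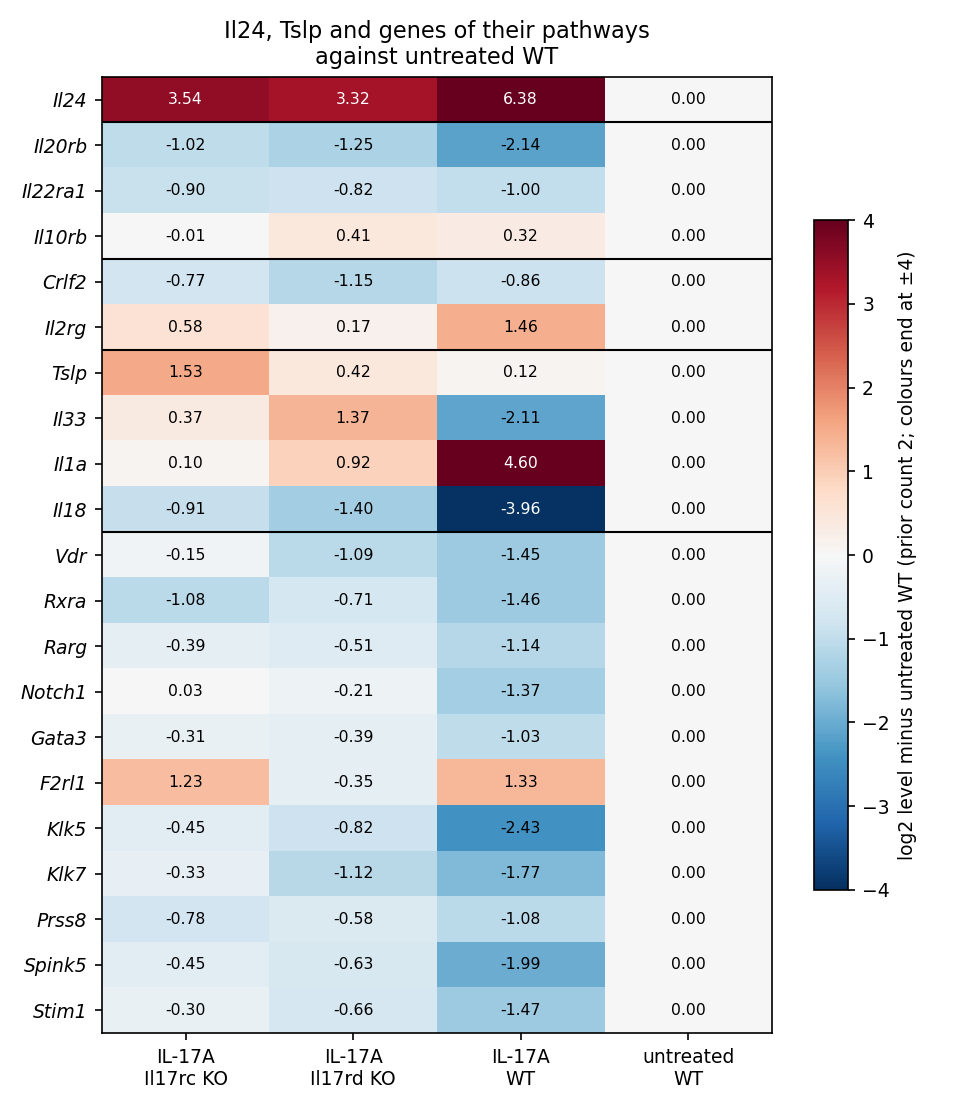
Log2 level minus that of untreated WT (prior count 2) in the 4 libraries for Il24, receptor chains, alarmins with Tslp, and the regulators of Tslp that were called in any comparison, with the value written in each cell and colours ending at 4 either way. The Tslp regulators drawn here, which leave out the uncalled ones, lie below 0 in IL-17A WT except F2rl1. Tslp is above 1 in Il17rc KO alone.

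Genes known to act upstream of Tslp in mouse epidermis include the vitamin D receptor and its partner RXR, whose ligands or loss raise TSLP in skin, the Notch receptors, and the kallikrein proteases with their receptor PAR2. Of 20 measured genes of this list, 1 was called higher and 10 lower in IL-17A WT over untreated WT, and the median log2 ratio was -0.95. The percentages called among all genes were 8.69% higher and 10.5% lower. In Il17rc KO over IL-17A WT 6 were called higher and 0 lower, beside 6.02% and 4.68% of all genes, and the list's median was 0.37, against 0.042 over all genes. In Il17rd KO over IL-17A WT 3 were called higher and 1 lower, beside 6.04% and 3.6% of all genes, and the list's median was 0.43. Against untreated WT, 1 was higher and 1 lower in Il17rc KO, beside 7.09% and 6.73% of all genes. In Il17rd KO 0 were higher and 2 lower, beside 5.12% and 3.19%, and of these Vdr is not called when scaled by library totals, at a log2 ratio of -0.98 against -1.09.

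Vdr, the vitamin D receptor, had 3557 counts in Il17rc KO, 1902 in Il17rd KO, 1414 in IL-17A WT and 3786 in untreated WT. It was 2.45-fold higher (2.31 to 2.61) in Il17rc KO than in IL-17A WT, but unlike Tslp it was not called between Il17rc KO and untreated WT. Rxra, its partner, had 5032, 6689, 3782 and 10191 counts across the same libraries. It was called lower against untreated WT in Il17rc KO, as were 6.73% of all genes, and in IL-17A WT. Notch1 had 15764 counts in Il17rc KO, 13663 in Il17rd KO, 5859 in IL-17A WT and 14797 in untreated WT, and was called higher in both knockouts over IL-17A WT. F2rl1, which encodes PAR2, had 4171 counts in Il17rc KO, 1431 in Il17rd KO, 4362 in IL-17A WT and 1699 in untreated WT. It was 2.99-fold higher (2.81 to 3.17) in Il17rc KO than in Il17rd KO. Of the 20 genes of the list, F2rl1 was the 1 called higher in that comparison and 0 were called lower, beside 1.41% and 2.51% of all genes. In Il17rc KO over IL-17A WT F2rl1 was not called, where Tslp was. The kallikrein genes Klk5 and Klk7, proteases of the outer epidermis, were 5.44-fold (4.63 to 6.44) and 3.40-fold (3.27 to 3.54) below untreated WT in the IL-17A WT library. Spink5, which encodes their inhibitor, was 3.96-fold lower (3.81 to 4.12). The others called lower there were Vdr, Notch1, Rarg, Gata3, Prss8 and the calcium sensor gene Stim1, at log2 ratios between -1.47 and -1.03. Of these, Gata3 is not called when scaled by library totals.

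The transcription factor families with known binding near inflammatory cytokine genes gave a mixed picture. Of 18 measured AP-1, NF-kB and C/EBP genes, 3 were called higher and 3 lower in IL-17A WT over untreated WT, beside 8.69% and 10.5% of all genes. Fosl1, an AP-1 subunit whose transcript overlaps Ccdc85b, had 306 counts in Il17rc KO, 161 in Il17rd KO, 552 in IL-17A WT and 105 in untreated WT, highest in IL-17A WT and lowest in untreated WT as Il24 was. Nfkbiz, an NF-kB cofactor that IL-17A is known to induce, had 1659, 4209, 4338 and 1257 counts across the same libraries. In Il17rd KO it was at 1.08-fold below IL-17A WT (1.04 to 1.13), where Il24 differed by 8.74-fold. In Il17rc KO it was called lower than in Il17rd KO, as were 2.51% of all genes. Fosb was called higher at 35 counts against 16. Fosl2, Jun and Cebpa were called lower in IL-17A WT, at log2 ratios of -1.23, -1.10 and -1.82. Fos was called lower in Il17rc KO against untreated WT, with 252 counts against 550. Atf3, a stress-induced factor, had 660 counts in Il17rc KO, 377 in Il17rd KO, 224 in IL-17A WT and 199 in untreated WT, highest in Il17rc KO as Tslp was.

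Low oxygen is known to act upstream of Il24 at wound edges in mouse skin, so genes of the hypoxia response were listed as well. Of 11 measured, 0 were called higher and 5 lower in IL-17A WT over untreated WT, beside 8.69% and 10.5% of all genes, and the median log2 ratio was -0.70. Bnip3, a mitochondrial stress protein gene, was 12.6-fold lower (9.46 to 17.0) and Adm, the gene of the peptide adrenomedullin, 10.9-fold lower (9.27 to 12.9). Slc2a1, the glucose transporter gene, was 4.98-fold lower (4.82 to 5.15), and Pdk1 and Vegfa were called lower at log2 ratios of -1.59 and -1.06. These genes were lowest in the library where Il24 was highest. In Il17rc KO over IL-17A WT 5 were called higher, or 8 when scaled by library totals, beside 6.02% of all genes, with a list median of 0.995. In Il17rd KO over IL-17A WT 6 were called higher, beside 6.04% of all genes, with a list median of 1.14 and Hif1a at 2.21-fold (2.14 to 2.28).

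The genes whose profile over the 4 libraries was most like that of each cytokine were ranked by the root mean square difference of log2 levels after centring each gene on its mean. With 4 libraries this describes them and says nothing of shared control. Gene models without a proper name and gene symbols that had turned into dates were left out, which left 11664 genes for each cytokine. For Il24 the nearest of 11664 genes was Etv5, an ETS factor gene, at a difference of 0.41 on the log2 scale, against a median of 2.27. It was followed by Cxcl1, Kcnn4, Etv4, Pbp2, Mmp9, Gpr50 and Cxcl2, at 0.71 to 0.87. Cxcl1 and Cxcl2 encode neutrophil-attracting chemokines, Kcnn4 a calcium-activated potassium channel, Mmp9 a gelatinase and Etv4 another ETS factor. Etv5 had 151 counts in Il17rc KO, 123 in Il17rd KO, 768 in IL-17A WT and 18 in untreated WT. It was 8.02-fold (4.91 to 13.9) above untreated WT in Il17rc KO and 6.38-fold (3.87 to 11.1) in Il17rd KO. Cxcl1 was 2.97-fold (2.34 to 3.80) above untreated WT in Il17rc KO and 4.75-fold (3.79 to 6.00) in Il17rd KO, where Il24 was at 22.0-fold and 18.7-fold.

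For Tslp the nearest genes differed by 0.12 to 0.19 on the log2 scale, against a median of 0.64. They were Cdkn2c, P2rx7, Rnf26, Atf3, Cdkn2d, Brca2, Slc29a1 and Tmprss11b. Cdkn2c and Cdkn2d encode inhibitors of cyclin-dependent kinases, P2rx7 an ATP-gated channel, Brca2 a DNA repair protein and Slc29a1 a nucleoside transporter. Cdkn2c had 497 counts in Il17rc KO, 295 in Il17rd KO, 214 in IL-17A WT and 179 in untreated WT. Rnf26, a ubiquitin ligase gene with a near-identical copy that makes its count uncertain, had 1122, 423, 319 and 320 counts and was 2.72-fold higher (2.43 to 3.05) in Il17rc KO than in Il17rd KO.

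**Figure D4:**
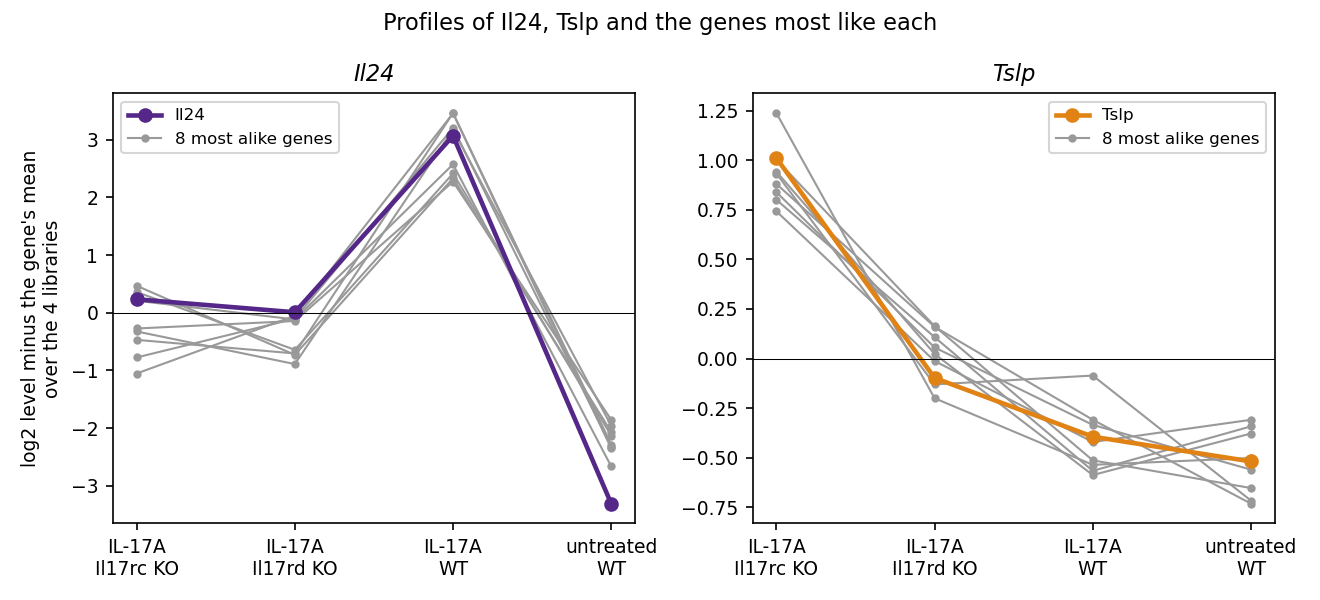
Profiles of Il24 (left) and Tslp (right) with the 8 genes most like each in grey, as log2 level minus the gene's own mean over the 4 libraries, with the libraries along the axis. Il24 and its like peak in IL-17A WT and are lowest in untreated WT, and Tslp and its like peak in Il17rc KO.

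The neighbours of each gene on its chromosome were measured too. Of 39 annotated genes that start within 500 kb of Il24, 11 were in the tables, and Il10, Il19 and Il20, which lie beside it, were not analysed here. Of the 11, 1 was called higher and 2 lower in IL-17A WT over untreated WT, beside 8.69% and 10.5% of all genes, and the median log2 ratio was -0.18. In that comparison Dyrk3, a kinase gene, was 2.36-fold higher (1.89 to 2.96), with 277 counts in IL-17A WT against 115 in untreated WT. Fcamr, an immunoglobulin receptor gene, had 9 counts in IL-17A WT against 48 in untreated WT, and Yod1, a deubiquitinase gene, 454 in IL-17A WT against 895 in untreated WT. In Il17rc KO over IL-17A WT, Ikbke, an NF-kB pathway kinase gene, was called lower, with 859 counts against 2035, and Fcamr higher, with 30 against 9. In Il17rd KO over IL-17A WT, Fcamr was called higher, with 49 counts against 9, and Dyrk3 lower, with 137 against 277. Among all genes, 6.02% were called higher and 4.68% lower in Il17rc KO over IL-17A WT. In Il17rd KO over IL-17A WT these shares were 6.04% and 3.6%. None of the 11 was called in Il17rc KO against untreated WT, beside 7.09% of all genes called higher and 6.73% lower. None was called in Il17rd KO against untreated WT either, beside 5.12% and 3.19% of all genes. Within 500 kb of Tslp 4 of 15 annotated genes were measured. Camk4, a calmodulin-dependent kinase gene, was called higher against untreated WT in all 3 IL-17A libraries, with 97 counts in Il17rc KO, 61 in Il17rd KO, 86 in IL-17A WT and 21 in untreated WT. Against untreated WT, 8.69% of all genes were called higher in IL-17A WT, 7.09% in Il17rc KO and 5.12% in Il17rd KO. Camk4 was not called between Il17rc KO and either of the other IL-17A libraries, whereas Tslp was.

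Markers of the cell types in the cultures varied between the libraries, and their part in the values of Il24 and Tslp was not tested. The 7 keratinocyte markers were all measured and summed to 29901 CPM in Il17rc KO, 32078 in Il17rd KO, 27445 in IL-17A WT and 38018 in untreated WT. Of these, Krt1 and Krt10, keratins of differentiating cells, were called lower in each IL-17A library against untreated WT. The other 5 were not called. Among all genes, 10.5% were called lower in IL-17A WT, 6.73% in Il17rc KO and 3.19% in Il17rd KO. Krt1 had 12388 counts in Il17rc KO, 22536 in Il17rd KO, 756 in IL-17A WT and 48645 in untreated WT, lowest where Il24 was highest. The 5 measured of 7 fibroblast markers summed to 17.5 CPM in Il17rc KO, 27.9 in Il17rd KO, 5.37 in IL-17A WT and 37.2 in untreated WT, lowest where Il24 was highest. The 6 melanocyte markers summed to 2007, 2159, 1548 and 2363 CPM in the same order, so melanocyte RNA was present in every library. The 4 measured of 11 immune cell markers summed to 75.6, 111, 88.2 and 136 CPM, and the 2 measured of 3 endothelial markers to 7.88, 10.5, 17.6 and 10.4 CPM. Among the immune markers was Lyz2, a macrophage lysozyme gene with a near-identical copy. Lyz2 had 67 counts in Il17rc KO, 348 in Il17rd KO, 396 in IL-17A WT and 796 in untreated WT. In the same order Csf1r had 17, 44, 48 and 94 counts, Cd68 547, 663, 340 and 572, and Kit 885, 1221, 942 and 1139. In Il17rc KO, Kit and Cd68 made up most of the immune sum, at 44.1 and 27.3 CPM. Lyz2 and Csf1r added 3.34 and 0.848 CPM there, against 41.5 and 4.90 CPM in untreated WT. None of the measured markers was at 0 in any library, which follows in part because each listed gene exceeds 1 CPM in 2 or more libraries. Ptprc and Cd3e, which define leukocytes and T cells, were not analysed here.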

How the data were processed

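Trim Galore 0.4.4, HISAT2, featureCounts (Subread) and edgeR are named, with build mm10, per the submitters' processing notes. Their settings, annotation and strand handling were not given in the sources used here. The authors deposited, per the file headers, a whole-number count and an FPKM value for each of 13102 genes, and each listed gene is above 1 CPM in 2 or more libraries. The FPKM values deposited by the authors imply the same relative library sizes as the TMM scaling, and were used to compare levels between genes and as an alternative scaling.

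TMM factors from edgeR 4.0.16 scaled the counts. Ratios carry exact conditional binomial (Clopper-Pearson) intervals and levels exact Poisson intervals, at 95%, computed with scipy 1.17.1. Without molecular identifiers, reads are not independent molecules, so both cover counting error alone. With 1 library per group no test across replicates could be made. The members and the 14 gene lists were chosen with earlier results of these data known. Named are Il24 and Tslp, Il17rc and Il17rd, measured ligands and receptor chains, called members of the lists, the 8 genes most like each cytokine and called neighbours. The text leaves out some of them. Some uncalled members, and Ddx3y and Xist, were chosen after their values were seen. Coordinates are from GENCODE M21 (GRCm38). Near-identical copies are genes whose transcripts match at 95% identity over at least 50% of the named gene's longest transcript (BLAST+ 2.17.0). Alternatives were other scalings, a prior count of 0.5, no filter on low counts and calls at 1.5-fold and 3-fold.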

Additional observations from a re-analysis of the deposited data

How the results depend on the processing

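The 78 alternative values of the Il24 and Tslp levels, ratios and remaining shares, under RLE factors, library totals, library sizes implied by the FPKM values and a prior count of 0.5, all stayed within the counting interval of the reported value. Of these values, 22 were under the FPKM-implied sizes and could not move, since those sizes have the same proportions as the TMM sizes. The share of the IL-17A difference of Il24 that remained ranged from 12.8% to 13.4% in Il17rc KO and from 10.8% to 11.6% in Il17rd KO. Scaling by library totals moved the median log2 ratio of all genes by up to 0.11. The FPKM-implied sizes and the setting with no filter on low counts could not change a call of either gene. The calls of Il24 were the same under all 7 settings. Those of Tslp changed in 3 of 6 comparisons at a 3-fold call, where Il17rc KO was no longer called over IL-17A WT, untreated WT or Il17rd KO, since all 3 ratios are below 3-fold. Counts of genes called moved by over 1.5 times when the fold itself was changed and under no other setting. At 1.5-fold the higher and lower calls numbered 2299 and 2427 in IL-17A WT over untreated WT, 1560 and 1256 in Il17rc KO over IL-17A WT, 1548 and 1069 in Il17rd KO over IL-17A WT, 1998 and 2062 in Il17rc KO over untreated WT, 1464 and 1295 in Il17rd KO over untreated WT, and 674 and 875 in Il17rc KO over Il17rd KO. At 3-fold they numbered 427 and 655, 331 and 250, 372 and 186, 425 and 255, 251 and 108, and 63 and 110, in the same order. Of 1176 alternative counts for the gene lists, 103 moved by over 1.5 times, 93 of them with the fold called. No paired analysis was possible because each group has 1 library. The 2 counts of Il24 in untreated WT limit every ratio against that library, whose intervals span more than an order of magnitude.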
